A study of Mus musculus with 15 samples.

Results

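The mucus genes of the goblet cell were followed through the liver and 4 sections of the intestine of the mouse. They were 10 genes chosen by symbol as a set of goblet cell genes, with earlier results of these data known: Muc2, Muc4, Muc13, Zg16, Fcgbp, Tff3, Agr2, Spink4, Spdef and Atoh1. Each of the 10 was found as 1 record among the 23349 gene symbols in the deposited table. All 10 also stood among the 13757 symbols kept for testing, those at 1 FPKM or more in 3 or more of the 15 libraries. FPKM is the number of fragments scaled by transcript length and by library size, so levels are given per length. How far this scaling makes the levels of different genes comparable was not tested.

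The libraries came from male wild-type C57BL/6 mice aged 2 to 3 months, with no treatment named, and mRNA was profiled by RNA-seq in 3 samples each of liver, duodenum, jejunum, ileum and large intestine (colon). The gallbladder had been taken off the liver, and the contents of the gut had been washed out with buffered saline. The sections are whole pieces of gut, so in such bulk samples fewer goblet cells and less RNA per goblet cell cannot be told apart. A library is called by its tissue and the number its title carries. Whether the 3 samples of one tissue are 3 animals is not stated, so each p-value is set against the spread among these samples alone, and that spread may be technical.

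Goblet cells are secretory cells scattered through the epithelium that lines the intestine. They pack the gel-forming mucin MUC2 into granules, and on release it swells into the mucus that keeps bacteria away from the tissue. Small proteins are secreted with the mucin, other mucins stay anchored in cell membranes, and transcription factors set the secretory fate of the cells.

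Agr2, Muc2, Spdef, Atoh1 and Muc4 were higher in the large intestine than in the small intestine, 5 of the 10 genes, by a test that called 8.78% of all genes higher. Muc2, the gel-forming mucin itself, averaged 1895 ± 751 FPKM in the large intestine (SD, n = 3) and 222.5 ± 107 FPKM over the 9 small-intestinal libraries. For Zg16, Fcgbp and Spink4, which encode proteins secreted by goblet cells, and for the membrane mucin Muc13, the same comparison was not called on the deposited values; after quantile normalization Zg16 and Spink4 were also called, at 1.47 and 1.71. Tff3, the trefoil peptide, had its lowest section mean in the large intestine. In the liver the highest value of any of the 10 genes was 60.6 FPKM, for Tff3 in 1 library.

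**Figure D1:**
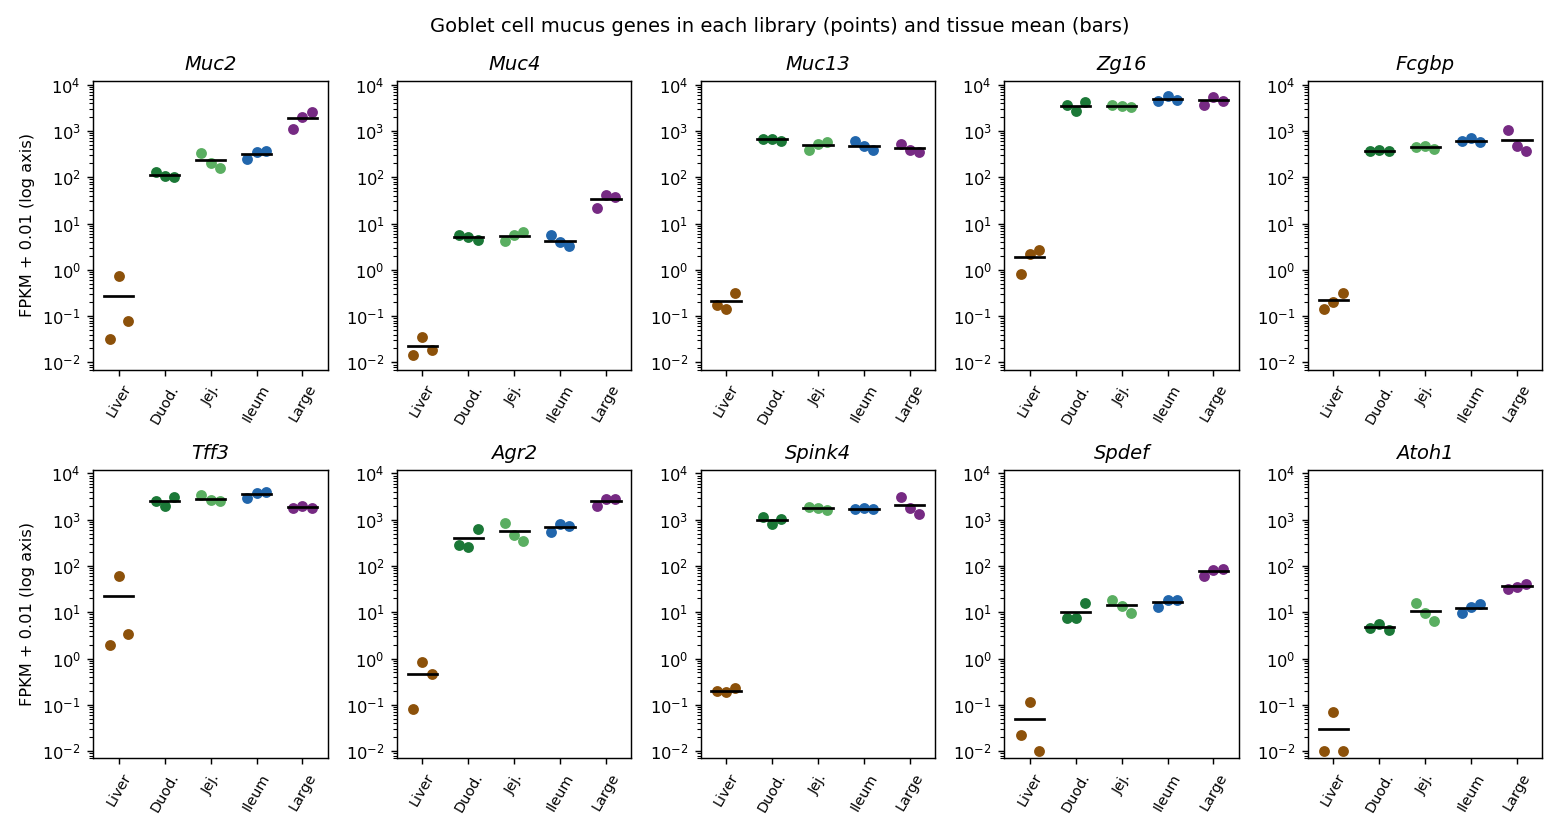
FPKM of the 10 genes in each of the 15 libraries, on a log axis after adding 0.01, by tissue; points are libraries and bars are tissue means (n = 3). Muc2, Muc4, Agr2, Spdef and Atoh1 have all 3 large-intestinal libraries above all 9 small-intestinal ones, and Tff3 has them below. The share of all genes that separate in this way was not counted. In large against small intestine 64.2% of all genes had an unadjusted limma p under 0.05.

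Several libraries stood apart from others with the same label, and these are described before the results. Duodenum 28 held transcripts of stomach and Brunner gland, the mucus gland at the start of the duodenum. The 8 genes listed for them summed to 10540 FPKM there, against 6.63 and 3.82 FPKM in the other duodenal libraries and no more than 4.91 FPKM in any other library. Tff2 alone, the trefoil peptide of gastric and Brunner gland mucus, was at 7792 FPKM in duodenum 28, against 4.63 and 0.963 FPKM in duodenum 24 and 27. Jejunum 24 had 6731 FPKM of Fabp6, the bile acid binding protein of the distal small intestine, whereas jejunum 27 and 28 had 23.1 and 5.61 FPKM. Ileum 24 had 255.5 FPKM of it, and ileum 25 and 27 had 6597 and 8112 FPKM. By this gene, jejunum 24 and ileum 24 go against their labels, and they are called the libraries labelled jejunum 24 and ileum 24. Overlaps between jejunum and ileum are given below by the labels as they stand. Liver 26 had 343.3 FPKM summed over 10 general epithelium genes, against 166.2 and 169.2 FPKM in the other livers. Few genes carry that sum, since 6 of the 10 were under 1 FPKM in every liver library. Epcam, among these 6, was at 0.904 FPKM in liver 26 and 0.906 FPKM in liver 27.

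The make-up of the sections also differed. The summed level of 8 smooth muscle genes was 2355 to 3433 FPKM in the large intestine and 502.1 to 1097 FPKM in the small intestine. The geometric mean of 10 genes of the epithelium at large was 354.0 ± 34.8 FPKM in the large intestine (SD, n = 3), and 334.2 ± 31.9, 338.4 ± 25.8 and 415.3 ± 53.5 FPKM in duodenum, jejunum and ileum. Markers of the labelled tissues were also summed. Hepatocyte genes summed to 54660 to 66533 FPKM in liver and to at most 56.8 FPKM in the gut. Paneth cell genes summed to 13427 to 59041 FPKM in the small intestine and to at most 126.8 FPKM in the large intestine. The part that cell make-up plays in the results was not tested.

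Differences were tested with limma on log2(FPKM + 1), and p-values were adjusted over all 13757 genes in each comparison (Benjamini-Hochberg). A gene is called where its adjusted p is under 0.05 and the log2 difference is at least 1 in size. Adding 1 FPKM understates the differences of genes at low level. Each section was first set against liver. All 10 genes were called higher in each of duodenum, jejunum, ileum and large intestine, where 30.6%, 36.9%, 34.3% and 41.8% of all genes tested were called higher and 9.19%, 8.94%, 9.24% and 8.99% lower. The log2 differences ran from 2.36 for Muc4 in ileum to 10.78 for Agr2 in large intestine. Zg16 had differences of 10.28 to 10.77 and Spink4 of 9.70 to 10.65 over the 4 sections.

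In liver, Zg16, a lectin-like protein of secretory granules that binds bacteria, was at 0.812, 2.21 and 2.67 FPKM. Muc2 was at 0.0223, 0.717 and 0.0681 FPKM in liver 24, 26 and 27, and Tff3 at 1.98, 60.6 and 3.46 FPKM. Liver 26 was thus the highest of the livers for both, and it was also the highest for Muc4, Agr2, Spdef and Atoh1. Cholangiocyte genes, from the cells that line bile ducts, summed to 34.5 FPKM in liver 26 and to 27.8 and 27.97 FPKM in the others; their part in the Tff3 value was not tested. Spdef was listed at 0 in 1 liver and Atoh1 in 2.

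Muc2 is the secreted mucin that forms the gel of intestinal mucus. The gene lies at chr7:141690340-141754694 (mm10). In duodenum 24, 27 and 28 it was at 126.9, 108.3 and 102.2 FPKM, and in jejunum 24, 27 and 28 at 330.0, 200.1 and 162.1 FPKM. In ileum 24, 25 and 27 it was at 249.5, 353.2 and 370.3 FPKM, and in large intestine 24, 25 and 27 at 1095, 2004 and 2586 FPKM. The duodenum lay below every other section with no overlap, jejunum and ileum overlapped, and the large intestine lay above all. From the lowest to the highest section the mean grew 16.8-fold, the widest range of section means among the 10 genes. Muc2 ranked 642nd among all gene symbols by mean FPKM in duodenum and 15th in large intestine. The large intestine exceeded the small intestine by 3.16 on the log2 scale (SE 0.27, limma adjusted p = 5.26e-07, 95% interval 2.58 to 3.73).

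Muc4 and Muc13 encode mucins that are anchored in the membrane and line the cell surface. Muc4 (chr16:32735886-32782390) was low in the small intestine, at 5.56, 5.203 and 4.34 FPKM in duodenum. Its jejunal values were 4.16, 5.78 and 6.43 FPKM and its ileal ones 5.74, 3.91 and 3.23 FPKM, and these 3 sections overlapped one another. In large intestine 24, 25 and 27 it was at 21.5, 40.6 and 38.4 FPKM, above all 9 small-intestinal libraries. The log2 difference of large against small intestine was 2.51 (SE 0.18, limma adjusted p = 8.96e-08). The records of Muc4 and its neighbour Muc20, also a membrane mucin, overlap by 4972 bases, and strand handling is not given in the sources used here, so reads in the overlap cannot be told apart. Muc20 itself was at 0.131 to 0.386 FPKM in the small intestine and 1.04 to 1.60 FPKM in the large.

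Muc13 (chr16:33794037-33819927) had its highest section mean in duodenum and its lowest in large intestine. Duodenum had 687.5, 683.3 and 605.0 FPKM, and jejunum 385.2, 521.8 and 577.9 FPKM. Ileum had 601.2, 467.7 and 387.0 FPKM, and large intestine 514.5, 395.7 and 355.1 FPKM. Duodenum lay above each other section with no overlap, and the other sections overlapped one another. The log2 difference of large intestine against duodenum was -0.66 (SE 0.18, limma adjusted p = 0.0067), short of the size asked for a call. Against the whole small intestine it was -0.36 (95% interval -0.69 to -0.036) with an adjusted p of 0.053. That sign turned under other scalings. The value was 0.026 after quantile normalization and 0.044 with every library brought to the same sum of FPKM.

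Agr2, a protein disulfide isomerase of the endoplasmic reticulum that mucin assembly needs, lies at chr12:35992925-36004081. It was at 283.4, 259.8 and 640.9 FPKM in duodenum and 858.4, 462.9 and 353.3 FPKM in jejunum. Ileum had 536.6, 794.2 and 720.7 FPKM, and large intestine 1995, 2863 and 2740 FPKM, which made it the 7th highest gene there by mean. The small-intestinal sections overlapped and the large intestine lay above them all. The highest duodenal value was that of duodenum 28, the library with the stomach and Brunner gland transcripts, and the highest jejunal one that of the library labelled jejunum 24. The large intestine was higher than the small by 2.31 (log2, SE 0.30, limma adjusted p = 2.83e-05).

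Spdef and Atoh1 are transcription factors: Atoh1 commits cells to the secretory lineage, and Spdef acts after it in goblet cell maturation. Atoh1 (chr6:64729146-64731235) had duodenal values of 4.52, 5.54 and 4.17 FPKM and jejunal values of 15.7, 9.71 and 6.63 FPKM. Its ileal values were 9.76, 12.8 and 14.97 FPKM, and the large intestine had 32.2, 35.9 and 40.7 FPKM. Duodenum lay below the rest and large intestine above the rest with no overlap. Spdef (chr17:27714447-27728951) had 7.41, 7.42 and 15.6 FPKM in duodenum and 18.8, 13.7 and 9.84 FPKM in jejunum. It had 12.9, 18.3 and 18.3 FPKM in ileum, against 59.5, 83.3 and 86.3 FPKM in large intestine. Its small-intestinal sections overlapped, and duodenum 28 was again the highest of the duodenal libraries. The log2 difference of large against small intestine was 1.97 for Atoh1 (SE 0.18) and 2.46 for Spdef (SE 0.22), both with a limma adjusted p of 1.01e-06.

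Zg16, Fcgbp, Tff3 and Spink4 encode proteins that goblet cells secrete along with the mucin. Zg16 (chr7:127050156-127051977) was the most abundant of the 10 in each section. The duodenal libraries held 3644, 2690 and 4196 FPKM and the jejunal ones 3676, 3461 and 3333 FPKM. The ileal libraries held 4424, 5597 and 4600 FPKM and those of the large intestine 3627, 5541 and 4546 FPKM. Only the ileum stood clear of duodenum and jejunum, and the large intestine overlapped all 3 other sections. That gap rests on the labels. With jejunum 24 (3676 FPKM) and ileum 24 (4424 FPKM), whose Fabp6 goes against their labels, exchanged, the ileum would overlap both. Its section means spanned 1.40-fold, and the log2 difference of large against small intestine was 0.22 (95% interval -0.22 to 0.65, limma adjusted p = 0.381). After quantile normalization it was 1.47 (adjusted p = 1.59e-05), which is a call.

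Tff3, a trefoil peptide that helps the epithelium to mend, lies at chr17:31125306-31129611. In duodenum it stood at 2525, 2012 and 3061 FPKM, and in jejunum at 3402, 2622 and 2504 FPKM. In ileum it stood at 2982, 3725 and 3908 FPKM, and in the large intestine at 1760, 1968 and 1777 FPKM. Every large-intestinal library lay below every small-intestinal one. The log2 difference of -0.67 had an SE of 0.67 in the fit over all 15 libraries (limma adjusted p = 0.415), where the spread is shared with liver, and the liver values of Tff3 run from 1.98 to 60.6 FPKM. In a fit to the 12 intestinal libraries alone, added after seeing the data, the same difference had an SE of 0.17 and an adjusted p of 0.00623. There it was -0.94 against ileum (adjusted p = 0.00372), -0.62 against jejunum (0.0349) and -0.45 against duodenum (0.0856). None of these reached 1 in size. After quantile normalization the direction turned, with 0.68 against small intestine, 0.57 against duodenum, 0.81 against jejunum and 0.64 against ileum.

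Fcgbp, a large protein that binds mucin in the gel, lies at chr7:28071236-28120864. Its values were 374.6, 391.3 and 362.2 FPKM in duodenum and 453.4, 466.0 and 412.2 FPKM in jejunum. They were 596.2, 704.0 and 566.6 FPKM in ileum, and 1069, 470.5 and 361.1 FPKM in large intestine 24, 25 and 27. The 3 small-intestinal sections did not overlap, in the order duodenum, jejunum, ileum, but the large intestine spanned them all. The gap between jejunum and ileum rests on the labels. With jejunum 24 (453.4 FPKM) and ileum 24 (596.2 FPKM), whose Fabp6 goes against their labels, exchanged, those sections would overlap. In the large intestine the coefficient of variation of Fcgbp was 60.1%. The record 9530053A07Rik, which RefSeq lists with the synonym FCGBP, lies close by at chr7:28129466-28164811 and was at 6.97 to 31.2 FPKM in the gut. How reads were shared between the 2 was not stated, so the Fcgbp values are uncertain to that extent.

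Spink4, a small secreted protein of the serine protease inhibitor family, lies at chr4:40920056-40931395. Duodenal libraries had 1160, 790.0 and 1053 FPKM of it, and jejunal ones 1911, 1747 and 1611 FPKM. Ileal libraries had 1693, 1809 and 1675 FPKM, and large intestine 24, 25 and 27 had 3040, 1776 and 1316 FPKM. Duodenum lay below the other sections, and the large intestine overlapped jejunum and ileum. Large intestine 24 was the highest library in the series for Fcgbp and Spink4, while it was the lowest of its section for Muc2, Agr2, Spdef and Atoh1. The log2 difference of large against small intestine was 0.42 for Spink4 (95% interval 0.0066 to 0.83, limma adjusted p = 0.0737) and 0.27 for Fcgbp (-0.22 to 0.76, adjusted p = 0.323). Without large intestine 24 they were 0.086 for Spink4 and -0.19 for Fcgbp, and without large intestine 27 they were 0.69 and 0.60. After quantile normalization Spink4 was called, at 1.71 (adjusted p = 5.1e-06).

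Of the 10 genes, 5 were called higher and 0 lower in large against small intestine, where 8.78% of all genes tested were called higher and 5.84% lower. The median difference was 1.19 over the 10 genes and 0.16 over all genes tested. Scaling moved that common median: it was -0.0015 after median-of-ratios scaling, 0.027 after quantile normalization and 0.50 when every library was brought to the same sum of FPKM. The share of higher calls among all calls was 60% for the deposited values, and it was 49.3% once median-of-ratios factors were used and 79.4% with the same sum. Muc2, Muc4, Agr2, Spdef and Atoh1 were called higher under each of these scalings, and quantile normalization, which also called Zg16 and Spink4, gave 7 of the 10. When the sections were scaled to the 10 epithelium genes, their differences were 3.18, 2.53, 2.34, 2.49 and 2.00.

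**Figure D2:**
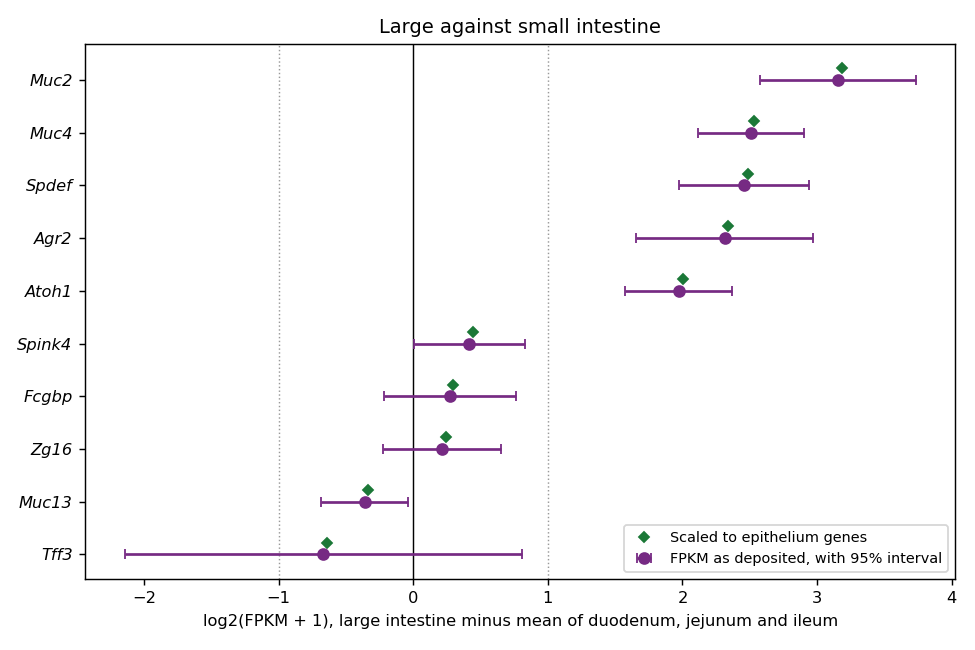
Log2 difference of large against small intestine for the 10 genes on log2(FPKM + 1), with 95% intervals from limma; green diamonds are the values after scaling to 10 epithelium genes, and dotted lines mark the size of 1 in each direction. The genes Muc2, Muc4, Spdef, Agr2 and Atoh1 lie beyond 1, from 3.16 down to 1.97, and the intervals of Zg16, Fcgbp and Tff3 include 0.

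The same 5 genes were called higher in large intestine against each small-intestinal section taken alone. The share of all genes called higher was 12.2% against duodenum, 7.33% against jejunum and 8.29% against ileum, and the share called lower was 6.84%, 5.23% and 5.5%, with 0 of the 10 genes among them. For Muc2 the log2 difference was 3.98 against duodenum, 3.01 against jejunum and 2.48 against ileum. For Atoh1 it was 2.70, 1.74 and 1.48 in the same order, and for Spdef 2.86, 2.38 and 2.14. Muc4 had 2.47, 2.38 and 2.68, so it was the exception in having its widest gap to the ileum. These comparisons share the large-intestinal libraries. Across the 4 sections at once, 5 of the 10 genes were called to differ, against 20.9% of all genes tested.

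Within the small intestine the differences were smaller. In ileum against duodenum, Muc2 and Atoh1 were called higher, 2 of the 10 genes, where 1.14% of all genes tested were called higher and 1.42% lower. The log2 difference was 1.504 for Muc2 (SE 0.33, limma adjusted p = 0.0112) and 1.22 for Atoh1 (SE 0.23, adjusted p = 0.00535). Spink4 differed by 0.80 (adjusted p = 0.0335), short of the size for a call. Both calls were lost with the sample number as a replicate block (adjusted p of 0.0991 for Muc2 and 0.0668 for Atoh1), that of Muc2 with a pseudocount of 0.1 (0.094) and that of Atoh1 after scaling to epithelium genes (0.94 on the log2 scale). Without duodenum 28 the count of called genes was 4, the added ones being Agr2 at 1.31 (adjusted p = 0.0423) and Spdef at 1.04 (adjusted p = 0.027). Without duodenum 28 and the libraries labelled jejunum 24 and ileum 24 it was also 4.

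In jejunum against duodenum 0 of the 10 genes were called higher or lower, where 0.807% of all genes were higher and 0.981% lower. At an adjusted p under 0.05 but below the size for a call, Muc2 differed by 0.97 (0.0466), Atoh1 by 0.96 (0.0175) and Spink4 by 0.83 (0.0279). At an unadjusted p under 0.05 limma gave 4 of the 10, against 43.1% of all genes. In ileum against jejunum 0 of all genes tested were called by limma, 0% of them, and 0 of the 10 had an unadjusted p under 0.05, against 6.74% of all genes. Both groups of that comparison include a library whose Fabp6 goes against its label. The library labelled jejunum 24 was the highest jejunum for Muc2, Agr2, Spdef and Atoh1. The one labelled ileum 24 was the lowest ileum for all 4. With these libraries exchanged, jejunum would lie below ileum with no overlap for Muc2, Tff3, Agr2, Spdef and Atoh1. For Muc4 and Muc13 jejunum would lie above ileum with no overlap, and for Spink4 the sections would still overlap. An exchange was not tested, and the share of all genes that would separate in this way was not counted.

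Levels relative to Muc2 differed along the gut, since the section means of Muc2 spanned a wider range than those of the secreted partners. From duodenum through jejunum and ileum to large intestine, Zg16 was 31.5 ± 8.48, 16.3 ± 4.78, 15.3 ± 2.69 and 2.61 ± 0.788 times Muc2 (ratio of FPKM, SD, n = 3). Tff3 over Muc2 was 22.8 ± 6.22, 12.955 ± 2.57, 11.0 ± 0.809 and 1.09 ± 0.470 in the same order. Agr2, by contrast, stayed nearer to Muc2, at 3.63 ± 2.29, 2.36 ± 0.215, 2.12 ± 0.154 and 1.44 ± 0.381, and its duodenal mean without duodenum 28 was 2.32. Fcgbp over Muc2 was 0.450 ± 0.458 in large intestine, the only section mean below 1 among these 4 ratios, and it was 0.187 without large intestine 24. In the same section Spink4 over Muc2 was 1.39 ± 1.21, and 0.697 without large intestine 24. Muc13 over Muc2 was 0.268 ± 0.177 there. Together the 10 genes made up 1.62 to 2.51% of the summed FPKM of a small-intestinal library and 3.40 to 3.90% of a large-intestinal one. The summed FPKM of all genes differed too, at 428494 to 541581 in the small intestine and 384287 to 389243 in the large. The sum of the 10 genes was 6953.5 to 13485 FPKM in small-intestinal libraries and 13213 to 15179 FPKM in large-intestinal ones. These last ranges overlap.

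**Figure D3:**
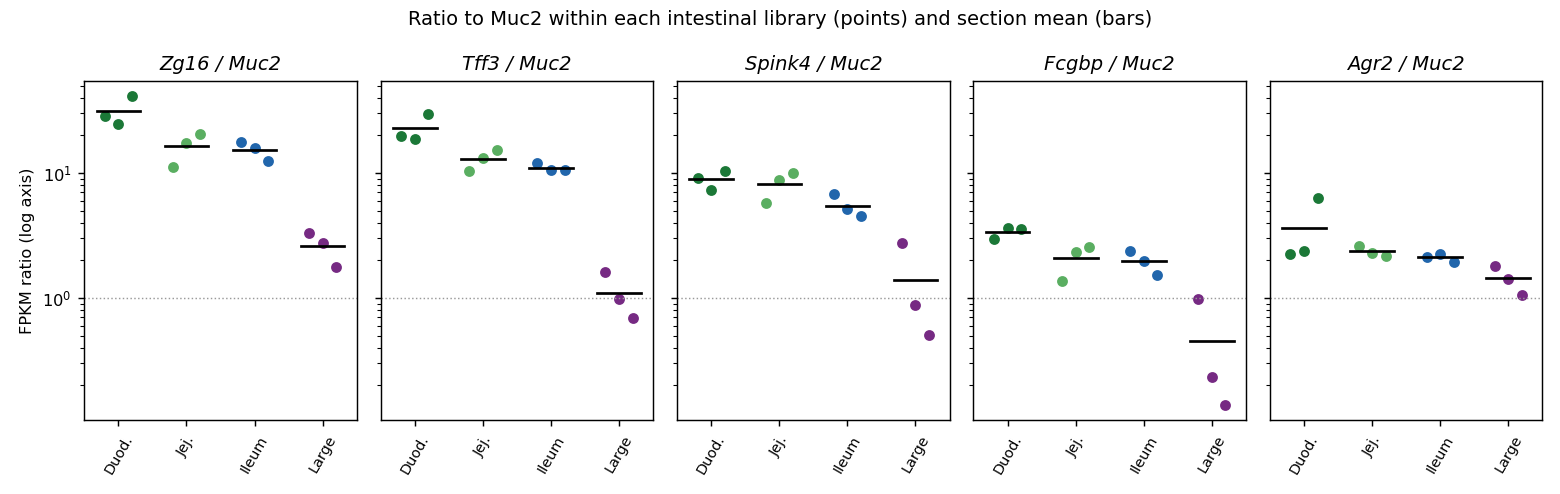
FPKM of Zg16, Tff3, Spink4, Fcgbp and Agr2 divided by that of Muc2 in each of the 12 intestinal libraries, on a log axis; points are libraries, bars are section means (n = 3), and the dotted line marks a ratio of 1. Zg16 over Muc2 falls from a mean of 31.5 in duodenum to 2.61 in large intestine.

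The promoters of the genes called higher in large intestine are shown, with that of Muc13, which was not, so that the sequences upstream of genes that moved together can be read beside each other. RefSeq (GRCm38.p6) gave a promoter for 7 of the 10 genes; Zg16, Tff3 and Spink4 had no entry. Each line holds the 250 bases before the start used by the RefSeq promoter table, on the gene's own strand, 5′ to 3′. For Spdef that start is the 5′ end of the record in the deposited table, whereas the RefSeq gene reaches further upstream, to position 27731003, so the window lies inside it. Capitals mark matches on either strand to a TATA box (TATAAA), E-boxes (CAGCTG and CAGATG), which are bound by factors of the Atoh1 class, a Cdx-type motif (TTTATG), an ETS motif of the SPDEF type (CGGATG) and a forkhead motif (TGTTTAC). The regions are chr7:141690090-141690339 for Muc2, chr16:32735636-32735885 for Muc4, chr12:35992675-35992924 for Agr2, chr17:27728952-27729201 for Spdef (minus strand), chr6:64728875-64729124 for Atoh1 and chr16:33793787-33794036 for Muc13.
Muc2: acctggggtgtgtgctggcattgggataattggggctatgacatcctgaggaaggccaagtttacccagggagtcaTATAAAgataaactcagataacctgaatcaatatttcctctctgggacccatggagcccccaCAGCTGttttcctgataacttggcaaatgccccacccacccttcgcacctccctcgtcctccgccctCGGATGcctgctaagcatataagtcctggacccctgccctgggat
Muc4: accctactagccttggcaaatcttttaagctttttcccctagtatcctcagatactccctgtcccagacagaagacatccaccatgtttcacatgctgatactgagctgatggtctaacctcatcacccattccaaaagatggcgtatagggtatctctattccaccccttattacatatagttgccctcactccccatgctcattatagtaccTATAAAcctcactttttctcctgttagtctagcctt
Agr2: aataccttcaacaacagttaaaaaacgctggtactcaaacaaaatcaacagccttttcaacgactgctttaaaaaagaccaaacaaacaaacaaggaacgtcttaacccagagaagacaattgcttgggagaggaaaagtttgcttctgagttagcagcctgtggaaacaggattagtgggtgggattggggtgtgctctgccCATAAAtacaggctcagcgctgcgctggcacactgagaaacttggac
Spdef: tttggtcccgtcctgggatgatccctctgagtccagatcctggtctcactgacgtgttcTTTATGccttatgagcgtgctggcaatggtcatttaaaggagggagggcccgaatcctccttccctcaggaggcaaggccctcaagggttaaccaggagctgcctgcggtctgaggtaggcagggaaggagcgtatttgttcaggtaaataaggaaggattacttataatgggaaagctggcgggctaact
Atoh1: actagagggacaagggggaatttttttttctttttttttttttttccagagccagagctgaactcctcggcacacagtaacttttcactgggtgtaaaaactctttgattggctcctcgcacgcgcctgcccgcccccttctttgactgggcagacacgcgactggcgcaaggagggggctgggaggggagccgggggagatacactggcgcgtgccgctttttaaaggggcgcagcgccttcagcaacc
Muc13: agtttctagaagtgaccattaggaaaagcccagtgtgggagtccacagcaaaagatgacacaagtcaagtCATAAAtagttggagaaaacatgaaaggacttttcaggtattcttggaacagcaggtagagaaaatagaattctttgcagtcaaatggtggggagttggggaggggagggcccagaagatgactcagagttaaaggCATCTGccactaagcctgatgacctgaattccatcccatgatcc

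Among the 7 promoters, Muc2 and Muc4 held TATAAA, found in 12.4% of all 32851 promoter windows of this length. In Muc4 it began 36 bases before the start, and in Muc2 174 bases before. CAGCTG was in Muc2 and Fcgbp (13.0% of all windows), CAGATG in Muc13 (14.4%) and CGGATG in Muc2 (4.9%). TTTATG was in Muc13, Agr2 and Spdef (10.8% of all windows), so it was in genes on both sides of the comparison. TGTTTAC was in none of the 7 (3.17% of all windows), and Atoh1 held none of the 6 motifs. A match is a stretch of letters and not a site shown to be bound.

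The genes whose level ran most like that of each of the 10 were found over the 12 intestinal libraries by Pearson's r of log2(FPKM + 1). These libraries share the contrast between large and small intestine, so the values describe and do not test. For Muc2 the closest were Syt7 (0.992), a calcium sensor of vesicle release, Sidt1 (0.989) and Sgsm1 (0.989). For Agr2 they were Nipal2 (0.991), Rab27a (0.990), a GTPase of secretory granules, and Spdef (0.990). For Spdef they were Nipal2 (0.996), Gfpt1 (0.995), the first enzyme of hexosamine synthesis, and Creb3l4 (0.994), and for Atoh1 Slc25a35 (0.996), Mcf2l (0.996) and Hepacam2 (0.995). For Muc4 they were Hoxa2, Cog7 and AU023871, all at 0.984.

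The remaining genes had other company. Muc13 ran most like Cyp2c40 (0.969), Cyp2c67 (0.962) and Cyp2c68 (0.953), which are cytochromes P450. Tff3 ran most like Slc51b (0.962), a bile acid exporter subunit, Cdkn2b (0.956) and Csnk2a1 (0.952). Spink4 ran with Pla2g2f (0.932), Capn13 (0.918) and C4bp (0.897), and Fcgbp with its neighbour 9530053A07Rik (0.991) and Capn13 (0.885). D7Ertd143e also ranked high for Fcgbp (0.888), but its means were 0.0014 FPKM in small and 0.0029 FPKM in large intestine, so that value carries no information. For Zg16, the highest r was 0.909, for Dpp3, Chmp2b and Cldn4.

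Among the 10 genes themselves, Agr2 and Spdef had an r of 0.990 over the 12 intestinal libraries and 0.985 over the 9 small-intestinal ones. Muc2 and Atoh1 had 0.978 and 0.969. Some pairs differed between the sets: Muc2 and Tff3 had -0.47 over 12 libraries and 0.797 over 9, and Tff3 and Agr2 had -0.38 and 0.924. Muc2 and Muc4 had 0.858 over 12 and -0.54 over 9. Muc13 ran against Muc2 in both, at -0.770 and -0.865. The library labelled jejunum 24 and duodenum 28 are among the 9.

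**Figure D4:**
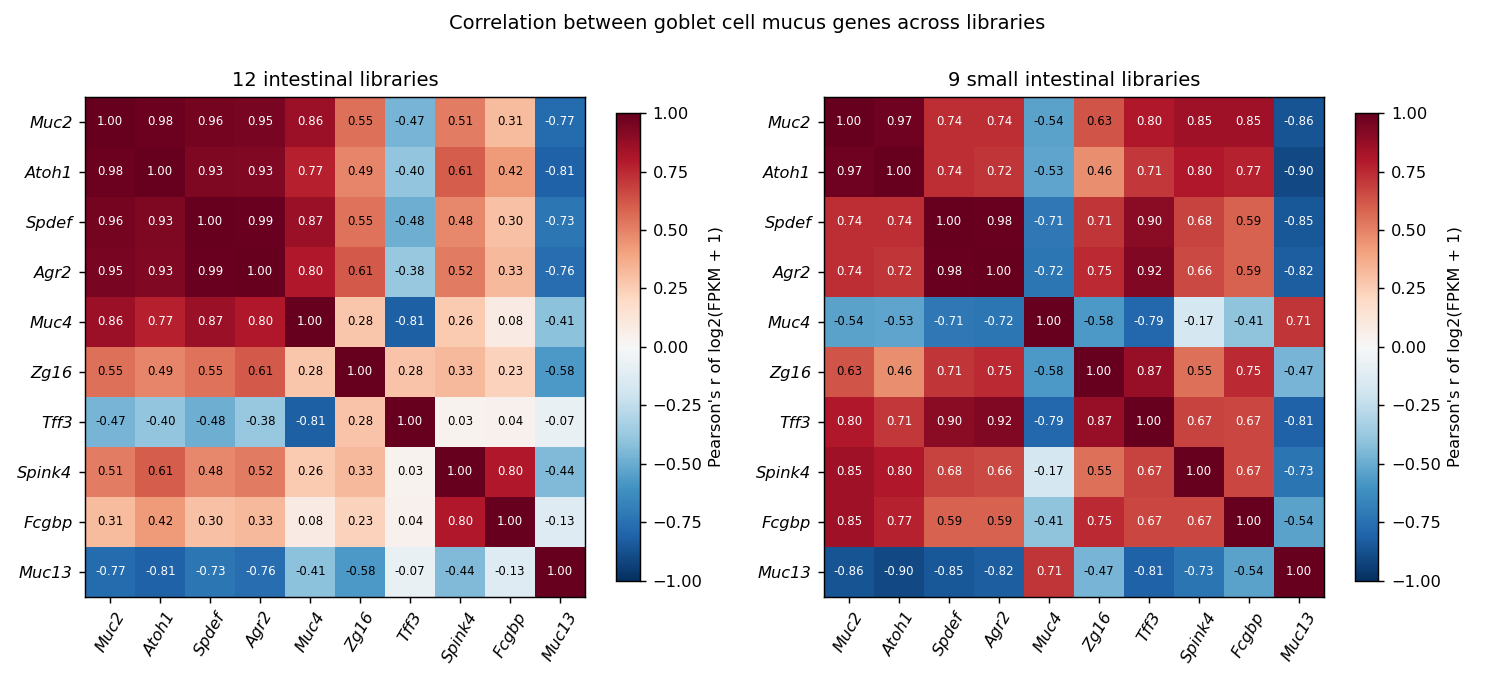
Pearson's r between the 10 genes on log2(FPKM + 1), over the 12 intestinal libraries and over the 9 small-intestinal libraries; colour gives r from -1 to 1. Agr2 and Spdef are close in both (0.990 and 0.985), whereas Muc2 with Tff3 turns from -0.47 to 0.797.

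Other genes of the goblet cell were counted in the same comparison of large against small intestine. Of 25 other goblet cell products listed, 23 were tested. Of these, 16 were called higher and 0 lower, against 8.78% of all genes called higher and 5.84% lower. The median difference was 1.54, against 0.16 over all genes. Agr3 (-0.79), Ang4 (-0.79), Nlrp6 (-0.73) and Tff2 (-0.42) had negative log2 differences, short of a call. The widest was Retnlb, which encodes the antibacterial resistin-like protein RELM-beta, at 8.02 (limma adjusted p = 4.23e-08). It was at 1046, 136.0 and 157.0 FPKM in large intestine 24, 25 and 27 and at no more than 0.411 FPKM in the small intestine. Clca3, as the table names the record at chr3:145004537-145032776, is a secreted metalloprotease of mucus that RefSeq names Clca1. It was at 4345, 1544 and 998.7 FPKM in large intestine and at 181.3 to 686.6 FPKM in the small intestine, and it is named here after its values were seen. Both were highest in large intestine 24, as were Fcgbp and Spink4. That library also had 147.1 FPKM of Hoxb13, a marker of the distal end of the gut chosen after its values were seen, against 48.9 and 20.4 FPKM in the other large-intestinal libraries.

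Of 11 other mucins listed, 7 were in the table and 2 were tested. Muc1, a membrane mucin, was called higher at 1.66 (limma adjusted p = 0.00363), with 2.34, 4.27 and 3.799 FPKM in large intestine. In the small intestine duodenum 28 had 5.1995 FPKM of it and the other 8 libraries at most 0.235 FPKM, so the groups overlapped through that library. Muc20 differed by 0.90 and was not called. Muc6, a gastric and Brunner gland mucin, was at 268.6 FPKM in duodenum 28 and at no more than 0.504 FPKM in any other library.

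**Figure D5:**
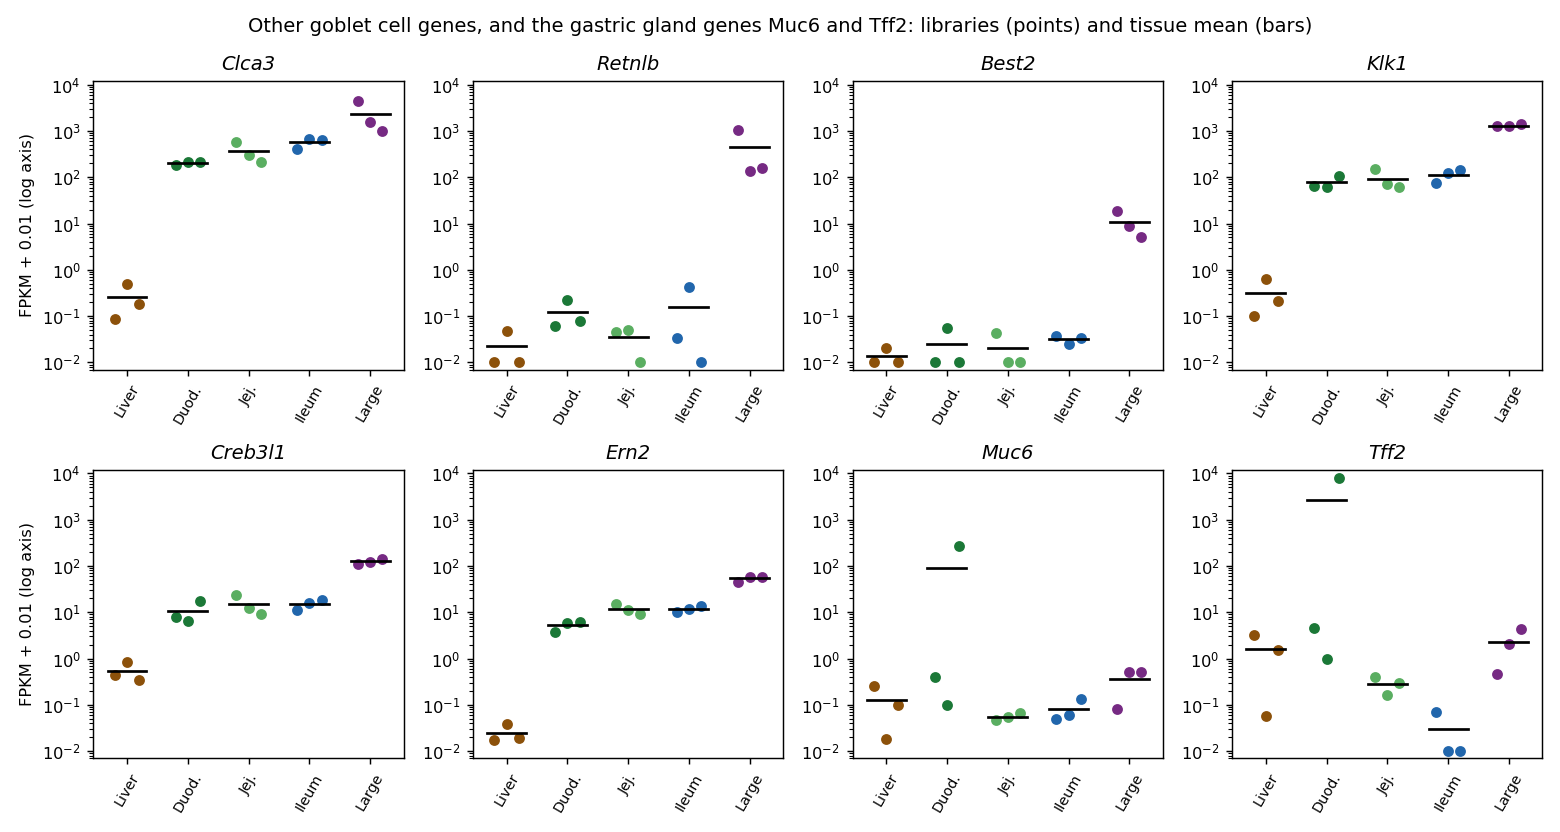
FPKM of Clca3, Retnlb, Best2, Klk1, Creb3l1, Ern2, Muc6 and Tff2 in each of the 15 libraries, by tissue, on a log axis; points are libraries and bars are tissue means (n = 3). Muc6 and Tff2 are high in duodenum 28 alone, at 268.6 and 7792 FPKM, and Clca3 and Retnlb are highest in large intestine 24. Clca3, Retnlb, Best2, Klk1, Creb3l1 and Ern2 were all called higher in large against small intestine and do not stand for their whole lists.

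Of the regulators of the secretory lineage, 19 were tested. In large intestine 10 were called higher and 1 lower, against 8.78% of all genes called higher and 5.84% lower. The median difference was 1.09, against 0.16 over all genes. The share called lower was near that of all genes, so that 1 call is read as no result about the list. The gene called lower was Dll1, a Notch ligand carried by secretory progenitors, at -1.65 (limma adjusted p = 6.77e-08), from 11.9 ± 1.62 FPKM over the 9 small-intestinal libraries to 3.10 ± 0.259 FPKM over 3 (SD). Over the scalings the count of higher calls was 9 to 11.

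A further list held genes of the secretory endoplasmic reticulum, of granule release and of mucus processing. Of 32 tested, 8 were called higher and 2 lower, with a median of 0.24, against 8.78% higher, 5.84% lower and a median of 0.16 over all genes, so the share called lower was near that of all genes. Tgm3, a transglutaminase, which cross-links proteins, had the widest rise, at 5.94 (limma adjusted p = 2e-07), from 0.0249 ± 0.0245 to 86.8 ± 81.7 FPKM. Mep1b, a subunit of the protease meprin, had the widest fall, at -2.80 (adjusted p = 3.85e-09), from 351.9 ± 56.7 to 49.6 ± 9.57 FPKM. Mep1b is also a brush border gene of enterocytes, and neither Tgm3 nor Mep1b is known for folding proteins or releasing granules. Over the scalings 7 to 10 of the 32 were called higher and 1 to 3 lower.

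Markers of other cells differed between the same groups. All 8 smooth muscle genes were called higher in large intestine, led by Cnn1 at 2.60, and 4 of 6 fibroblast genes, led by Col3a1 at 1.42. All 8 colonocyte genes were higher, led by Car1 at 9.93, whereas 9 of 10 absorptive enterocyte genes, led by Apoa4 at -10.03, and all 8 Paneth cell genes, led by Defa24 at -12.01, were lower. Of the 10 epithelium genes, 1 was called higher (Krt18 at 1.12) and 2 lower (Vil1 had the widest fall, at -1.61). Enteroendocrine genes gave 3 higher calls, with Pyy at 3.61, and 4 lower, with Gip at -6.25, among 10, and 0 of 5 tuft cell genes were called. Smaller counts were 2 of 7 crypt genes lower (Olfm4 at -7.94), 2 of 9 immune genes lower (Cd3e at -1.29), and 1 higher among 8 genes of enteric neuron and glia (Gfap at 1.02), 6 of exocrine pancreas (Cela1 at 4.15), 8 of hepatocytes (Ttr at 1.14) and 7 of cholangiocytes (Sox9 at 1.35). Against 8.78% of all genes called higher and 5.84% lower, these single calls are read as no result about those cells. The part of these cells in the results on the mucus genes was not tested.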

How the data were processed

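The values used are FPKM as deposited by the authors, 1 column for each of 15 libraries and 23845 gene records, and 0 columns lacked a sample. Per the submitters' processing notes, CASAVA, FastQC, TopHat2 2.0.3, Bowtie 0.12.8, SAMtools 0.1.18 and Cufflinks 2.0.0 were used with mm10. Per the labels' protocols, libraries were made from 3 µg of total RNA with a TruSeq kit. The FPKM values do not give whole reads, so the depth is unknown and intervals for counting error could not be given.

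From these values, records sharing a symbol were summed, symbols reaching 1 FPKM in at least 3 of 15 libraries were kept, and log2(FPKM + 1) was fitted with limma 3.58.1 (R 4.3.3; 1 mean per tissue, all 15 libraries, trend and robust moderation), with Benjamini-Hochberg adjustment over 13757 genes per comparison. The genes and gene lists were chosen with earlier results of these data known. The 3 genes most like each were named by Pearson's r, and of each list the called gene with the widest difference in each direction, except for an item that is not reported here. Samples with the same number in the title were not treated as pairs, since their deviations from the tissue means mostly did not run together. That check rests on 3 libraries per tissue and cannot show whether the numbers name animals. Promoter sequences are from RefSeq. Other scalings, another pseudocount, no filter, records kept apart, plain moderation, a replicate block and left-out libraries were tried as alternatives.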

Additional observations from a re-analysis of the deposited data

How the results depend on the processing

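The calls of Muc2, Muc4, Agr2, Spdef and Atoh1 in large against small intestine held under every alternative run (25 settings with the reported one, a left-out library each among them), with log2 differences of 2.89 to 4.43 for Muc2, 2.30 to 2.89 for Muc4, 2.12 to 3.69 for Agr2, 2.26 to 2.86 for Spdef and 1.77 to 2.36 for Atoh1. All 10 genes also stayed called higher than in liver in each alternative that included liver. Depth is unknown, so what it limits could not be stated. The causes of the changes below were not tested, beyond the fewer samples of a left-out library.

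Counts of called genes changed as follows. In jejunum against duodenum the count of 0 became 1 with a pseudocount of 0.1, and it ran from 0 to 2 when one library was left out. In ileum against duodenum the count of 2 became 1 after scaling to epithelium genes and with a pseudocount of 0.1, and 4 without duodenum 28, jejunum 24 and ileum 24, and it ran from 1 to 4 when one library was left out, from 1 without ileum 25 to 4 without duodenum 28. With the sample number as a replicate block it became 0. Quantile normalization gave 8 in place of 5 in large intestine against duodenum, 8 in place of 5 among the 4 sections, and 7 in place of 5 in large intestine against jejunum, ileum and small intestine, where it added Zg16 and Spink4.

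The numbers in the titles may name animals shared between tissues, which the labels do not say. They were not used as pairs. Over 22 pairs that share a number, deviations from the tissue means had correlations of -0.49 to 0.16. The own number was the best match in 8. The lowest value was that of jejunum 24 with ileum 24, whose Fabp6 goes against their labels. With 3 libraries per tissue, such correlations cannot show whether the numbers name animals. The replicate block also turned Muc13 in ileum against jejunum to 0.026.

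Some small log2 differences changed sign. In jejunum against duodenum, median-of-ratios scaling gave -0.049 for Muc4 and -0.15 for Zg16, quantile normalization -0.15 for Muc4, -0.55 for Zg16 and -0.24 for Tff3, the same sum -0.028 for Muc4 and -0.12 for Zg16, and for Zg16 epithelium scaling gave -0.0051 and leaving out jejunum 24 and ileum 24 gave -0.023. In ileum against duodenum, quantile normalization gave -0.40 for Zg16 and -0.071 for Tff3. In ileum against jejunum, median-of-ratios scaling gave 0.027 for Muc13 and 0.036 for Spink4, epithelium scaling -0.032 for Spdef, and leaving out jejunum 24 and ileum 24, with or without duodenum 28, 0.053 for Spink4.

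With the large intestine, quantile normalization gave Tff3 0.57 against duodenum, 0.81 against jejunum, 0.64 against ileum and 0.68 against small intestine, and Muc13 0.094 against jejunum, 0.18 against ileum and 0.026 against small intestine. Against ileum it also gave Zg16 1.55 and Fcgbp 0.49. The same sum gave Muc13 0.22 against jejunum, 0.27 against ileum and 0.044 against small intestine, and against ileum Zg16 0.36 and Fcgbp 0.33. Against ileum, epithelium scaling gave Muc13 0.030, Zg16 0.12 and Fcgbp 0.10, and median-of-ratios scaling gave Spink4 -0.023.

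With one library left out, signs changed in these ranges. In jejunum against duodenum Muc4 ran from -0.023 to 0.24 and Zg16 from -0.17 to 0.16. In ileum against jejunum Muc13 ran from -0.20 to 0.12, Spink4 from -0.083 to 0.040 and Atoh1 from -0.0038 to 0.56. In large intestine against jejunum Fcgbp ran from -0.10 to 0.68 and Spink4 from -0.20 to 0.41. Against ileum Zg16 ran from -0.26 to 0.050, Fcgbp from -0.59 to 0.19 and Spink4 from -0.17 to 0.43, and against small intestine Fcgbp ran from -0.19 to 0.60. Spink4 ran there from 0.086 to 0.69 with no change of sign.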
